A study of Homo sapiens with 14 samples.

Results

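In scRNA-seq of SW620 long-term culture (LTC), 608 of the 58562 cell barcodes within the limits on genes and UMIs carried almost no mitochondrial RNA. A UMI, or unique molecular identifier, marks 1 captured RNA molecule, and a barcode stands for 1 droplet, which may hold a cell or a piece of one. The members were chosen by a single value, a share of UMIs under 0.5% from the 13 mitochondrial genes (MT- genes), among barcodes with 200 to 4500 genes and 1000 to 20000 UMIs. They made up 1.04% of these barcodes, and 128 of them had no MT- UMI at all. The reference was the 45848 barcodes of the same libraries with 2% to 10% MT- UMIs, while 1826 barcodes between 0.5% and 2% and 10280 above 10% entered neither group. Because the MT- share chose the members, it is given as a description only. The MT- genes were left out of every test of genes and of the totals behind every CPM and every share of a gene list. The limits and the UMIs per barcode and per library count all UMIs, MT- genes included.

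SW620 is a human cell line from a lymph node metastasis of colorectal cancer. The cells either carried an empty FLAG vector (called SW620-FLAG; the labels write SW620) or overexpressed, as SW620-TET2CD, the catalytic domain of the methylcytosine oxidase TET2. Both lines grew as colonies without passage and were dissociated on days 6, 9, 12 and 15, with 1 library per line and day, so 8 libraries in all and no replicate culture of any condition. The promoter behind the constructs and whether each line is 1 clone were not stated in what was read.

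Mitochondria keep a small genome of their own, and its transcripts carry poly(A) tails, so a whole cell adds them to any library primed on poly(A). Most other mRNAs leave the nucleus, and those for secreted and membrane proteins are translated at the endoplasmic reticulum (ER), whereas those for ribosomal and cytosolic proteins are translated on free ribosomes. Some long noncoding RNAs (lncRNAs) stay in the nucleus, among them MALAT1 in nuclear speckles, NEAT1 as the scaffold of paraspeckles, and KCNQ1OT1 on the chromatin of an imprinted locus.

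The members were shallow. Their median was 4078 UMIs, with a middle range of 2511 to 6565 and extremes of 1006 and 19487, and 91 had under 2000 UMIs. In every library their median depth was below that of the reference, 2531 to 6720 against 6656 to 13493 UMIs (exact sign-flip permutation over 8 libraries, p = 0.00781, the smallest that 8 libraries allow). Within the chosen range, 385 of the 608 members lay under 0.1% MT- UMIs. The 110 barcodes just inside the limit, at 0.25% to 0.5%, held a median of 4 MALAT1 UMIs in 900 drawn non-MT UMIs, and the 137 just outside, at 0.5% to 0.75%, held 17, both pooled over 8 libraries whose MALAT1 levels and numbers of such barcodes differ. The libraries hold 5790 to 10713 deposited barcodes and 60309495 to 128282918 UMIs each, and any pair of libraries shared 11 to 31 barcode sequences, at most 0.440% of a library. In 3 libraries (SW620-FLAG day 9, SW620-TET2CD day 9 and SW620-TET2CD day 12) fewer than 50 members were found, 28, 30 and 35, and these libraries did not enter the gene test of members against the reference.

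MALAT1 and NEAT1, which had been proposed as markers of these barcodes, went the other way. Summed per library, both were lower in the members than in the reference in 8 of 8 libraries. Neither therefore marks the members, and the barcodes are called here only by their MT- share. The epithelial keratins were present: KRT18 ranged from 4702 to 6730 CPM in the members and from 4651 to 7850 CPM in the reference. Of 13 tested epithelial markers, 3 were lower in the members (EPCAM, CDH1 and CLDN3) and 0 higher, beside 8.02% and 5.38% of all genes. The summed share of the epithelial list was 0.959% to 1.45% of UMIs in the members and 1.04% to 1.54% in the reference, lower in 6 of 8 libraries. CPM (counts per 1e+06) is a gene's UMIs scaled to the UMIs of all genes other than MT- genes, summed over the barcodes of a group in a library. Of 16 markers of blood, stroma and endothelium, 7 had no UMI in any member, and the whole list held 78 of the 3124144 UMIs of the members. Its summed share was 0% to 0.00407% of UMIs in the members and 0.00289% to 0.00460% in the reference. In the gene test 0 of the 8 tested markers passed, beside 13.4% of all genes. With all 8 libraries fitted, 1 was higher (HBA1) and 1 lower (LUM).

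MALAT1 is the gene of a nuclear lncRNA on chromosome 11 (chr11:65497640-65508073, plus strand, GRCh38, GENCODE). Its mature RNA has no poly(A) tail and ends in an A-rich stretch written in the genome, which lets a primer for poly(A) bind it. The stretch is shown because it is a part of MALAT1 that a 3′ library may prime on, though where the reads lie was not examined. Capitals mark the 20-base window with the most A (17 of 20) in the last 2000 bases of the gene, at chr11:65506097-65506116 within chr11:65506037-65506126.
MALAT1: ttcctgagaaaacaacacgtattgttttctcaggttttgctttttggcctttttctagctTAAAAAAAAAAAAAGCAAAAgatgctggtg

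In the members of SW620-FLAG, MALAT1 measured 1321, 777, 12699 and 13352 CPM over days 6, 9, 12 and 15. In the reference barcodes of the same libraries it measured 7211, 10074, 32145 and 38433 CPM. In SW620-TET2CD the members held 3270, 2807, 7861 and 24034 CPM. The reference of SW620-TET2CD held 7084, 10106, 20955 and 47595 CPM. Each library thus had less MALAT1 in the sum of its members. The sums of days 12 and 15 are weighted by members near the limit: those under 0.1% MT- UMIs (385 of the 608 over all 8 libraries) held 620 to 5372 CPM in these 4 libraries, and those of 0.25% to 0.5%, 6 to 27 a library, held 26192 to 81695 CPM. Over the 5 libraries with at least 50 members, MALAT1 fell by 1.28 ± 0.13 on the log2 scale (SE, 5 libraries, edgeR adjusted p = 4.09e-20).

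NEAT1 (chr11:65422774-65445540, plus strand) had 27.2, 27.7, 1071 and 1143 CPM in the SW620-FLAG members, against 338, 530, 1384 and 2139 CPM in the reference. The SW620-TET2CD members had 203, 40.7, 647 and 2168 CPM, against 412, 603, 1323 and 3211 CPM. As a log2 ratio the gap was widest in SW620-FLAG days 6 and 9 and SW620-TET2CD day 9, and NEAT1 fell by 0.77 ± 0.12 on the log2 scale (SE, 5 libraries, edgeR adjusted p = 2.88e-08). With members taken up to 1% MT- UMIs, NEAT1 was at 0.30 on the log2 scale in place of a fall. KCNQ1OT1 (chr11:2597308-2700003, minus strand), a transcript antisense to KCNQ1, had 29.7, 13.9, 238 and 63.1 CPM in the SW620-FLAG members, against 273, 312, 1001 and 690 CPM. In SW620-TET2CD it had 73.9, 24.4, 99.1 and 453 CPM, against 258, 407, 838 and 1757 CPM. KCNQ1OT1 fell by 2.16 ± 0.13 on the log2 scale (SE, 5 libraries, edgeR adjusted p = 2.77e-55), 4.46-fold. As for MALAT1, members near the limit weighted the sums of days 12 and 15. Members under 0.1% MT- UMIs held 10.9 to 494 CPM of NEAT1 and 3.63 to 31.5 CPM of KCNQ1OT1 in these libraries. Those of 0.25% to 0.5% held 2066 to 7962 CPM and 169 to 1689 CPM. In each of these libraries that NEAT1 value lay above the reference and that KCNQ1OT1 value below it. The highest value among the members' 8 libraries lay above the lowest of the reference for all 3 RNAs. Within a library the sum of all members was always below that of the reference.

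**Figure D1:**
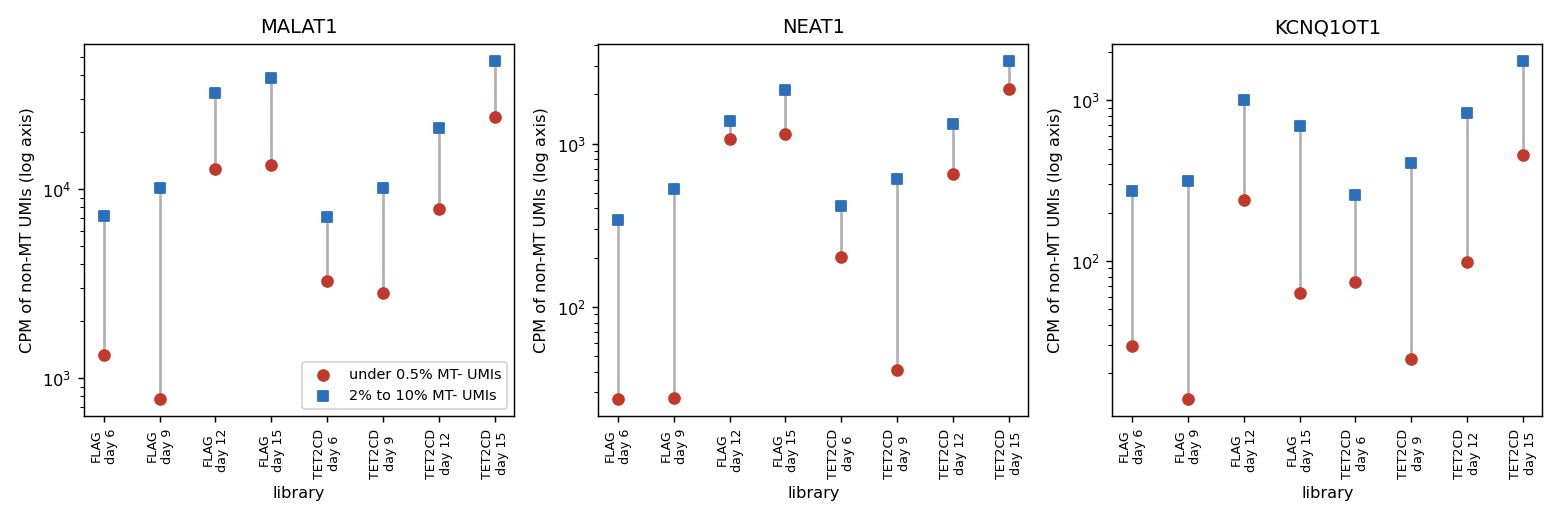
Level of MALAT1, NEAT1 and KCNQ1OT1 (CPM of non-MT UMIs, log axis) in each library, with circles for barcodes under 0.5% MT- UMIs, squares for barcodes of 2% to 10%, and a line joining the groups of a library. The circle lies below the square in all 8 libraries for each RNA; for MALAT1 the members range from 777 to 24034 CPM and the reference from 7084 to 47595 CPM.

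Counted barcode by barcode at equal depth, many members showed no MALAT1. When each barcode was thinned to 900 non-MT UMIs, which no member was too shallow for, 40.0% to 85.7% of the members of a library had no MALAT1 UMI, against 0.0906% to 5.58% of the reference. The mean difference was 60.6 percentage points ± 15.1 (SD, 8 libraries, exact sign-flip permutation p = 0.00781), and it was positive in 8 of 8 libraries. Without thinning, 16.4% to 64.3% of the members and 0% to 0.271% of the reference had none, a mean difference of 34.6 percentage points. In SW620-FLAG the thinned shares of members were 72.1%, 85.7% and 64.6% on days 6, 9 and 12, and on day 15 the count was 70 of 140 members. In SW620-TET2CD they were 40.0%, 73.3%, 65.7% and 53.6%. Their exact 95% intervals, such as 67.3% to 96.0% for the 28 members of SW620-FLAG day 9 and 54.1% to 87.7% for the 30 of SW620-TET2CD day 9, cover counting error only. A thinned member also showed fewer genes, a median of 462 to 576 per library against 532 to 597 in the reference, 49.2 fewer on average ± 19.5 (SD, 8 libraries, exact sign-flip permutation p = 0.00781).

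**Figure D2:**
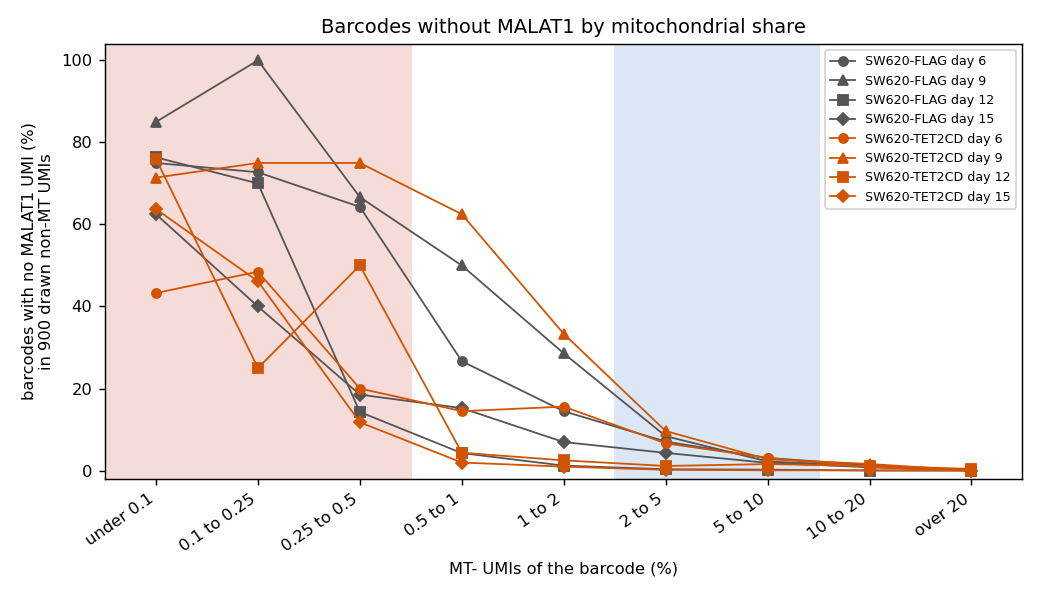
Percentage of barcodes with no MALAT1 UMI among 900 drawn non-MT UMIs (vertical axis) by the MT- share of the barcode in % (horizontal axis, 9 classes), with 1 line per library, red shading for the members and blue for the reference. Below 1% a class holds as few as 3 barcodes in a library, and at 5% to 10% no library exceeds 3.09%.

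The change with MT- share was not the same on all days. On days 6 and 9, MALAT1 was lower in each class under 2% MT- UMIs than at 2% to 5%, and in SW620-FLAG day 6 it went from 5975 CPM at 2% to 5% to 1273 CPM under 0.1%. On days 12 and 15 it was higher between 0.5% and 2% than at 2% to 5%, and low again under 0.1%. In SW620-TET2CD day 15 it stood at 71669 CPM at 2% to 5%, at 120263 CPM at 0.5% to 1% and at 620 CPM under 0.1%. SW620-FLAG day 12 gave 39229, 55733 and 2375 CPM in the same classes. NEAT1 took the same course in SW620-TET2CD day 15, with 6559, 10291 and 10.9 CPM. Members of 0.25% to 0.5% held 39579 CPM of MALAT1 in SW620-FLAG day 12, 26192 in SW620-TET2CD day 12 and 81695 in SW620-TET2CD day 15. These values lay above the whole reference of 2% to 10%, which held 32145, 20955 and 47595 CPM. In SW620-FLAG day 15 such members held 31924 CPM, below the 38433 CPM of the reference. At 0.1% to 0.25% the late libraries ranged from 599 to 50208 CPM.

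Across the genome, 851 of 15807 tested genes were higher in the members (5.38%) and 1268 were lower (8.02%), 13.4% in all (edgeR, adjusted p under 0.05, 5 libraries). With a log2 fold change of at least 1 as well, 90 were higher (0.569%) and 486 lower (3.07%). The median of all genes was -0.18 on the log2 scale under the TMM scaling used, so values are best read against it, and TMM factors place the fitted fold changes 0.04 to 0.30 above the plain CPM ratio. The split of calls depends on this scaling. It was 342 higher and 2279 lower by library size alone, 1400 and 772 with upper-quartile factors, and 1154 and 450 with DESeq2. When each barcode was thinned to 900 UMIs, so that all counted equally, 26 genes were higher and 586 lower. Thinning also left fewer UMIs and 11091 tested genes in place of 15807. Calls lost under it, here and below, cannot be put down to the equal weight alone. Leaving out SW620-FLAG day 12 gave 129 and 701, leaving out SW620-TET2CD day 15 gave 162 and 771, and leaving out SW620-FLAG day 15 gave 494 and 764.

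The deepest falls among abundant genes that were lower in 8 of 8 libraries were led by lncRNAs. After KCNQ1OT1 came GABPB1-AS1, antisense to the gene of a nuclear respiratory factor subunit, at 16.3 to 111 CPM in the members against 133 to 469 CPM in the reference. GABPB1-AS1 fell by 2.13 ± 0.15 on the log2 scale (SE, 5 libraries, edgeR adjusted p = 3.42e-39). FIRRE, an X-linked lncRNA that binds chromatin, had a median of 9.08 CPM against 44.9 CPM and fell by 1.65. FTX, a lncRNA of the X-inactivation centre, had 27.0 against 107 CPM and fell by 1.58. AC020916.1, a lncRNA on chromosome 19, had 6.67 against 52.0 CPM and fell by 1.73. FIRRE, FTX and AC020916.1 each fell to 0 CPM in the members of some library, so these values rest on few UMIs. There, 3 UMIs are 3.41 to 41.6 CPM depending on the library. The counting is not stated to use strand, so reads of an antisense gene and its partner may not be told apart.

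The protein genes among the 10 deepest falls were FOSB, GPR155, CEMIP2, TTC14 and KREMEN1. FOSB, an immediate early transcription factor whose mRNA is short-lived, ranged from 0 to 80.3 CPM in the members and from 128 to 321 CPM in the reference, with no overlap. It fell by 2.02 ± 0.16 on the log2 scale (SE, 5 libraries, edgeR adjusted p = 1.77e-33). CEMIP2, a transmembrane hyaluronidase, had a median of 11.2 against 65.8 CPM. KREMEN1, a cell surface receptor of DKK1 in the WNT pathway, had 14.3 against 50.01 CPM. GPR155 had 25.8 against 116 CPM, and TTC14 had 10.8 against 31.5 CPM. A count of 0 in a library allows up to 3 UMIs, which is 3.41 CPM in the deepest sum of members (879014 UMIs) and 41.6 CPM in the shallowest (72086 UMIs, SW620-FLAG day 9).

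The 10 largest rises that were higher in 8 of 8 libraries had folds below those of the falls. UBE2C, the ubiquitin-conjugating enzyme of the anaphase-promoting complex, had 525, 430, 110 and 85.7 CPM in the SW620-FLAG members. The reference had 220, 235, 22.1 and 80.7 CPM. In SW620-TET2CD it had 346, 537, 163 and 180 CPM against 276, 198, 50.6 and 39.9 CPM, and it rose by 1.30 ± 0.13 (log2, SE, 5 libraries, edgeR adjusted p = 4.27e-20). PTTG1, the securin that holds back chromatid separation, had a median of 297 against 179 CPM and a log2 fold change of 0.86. CENPN, a kinetochore protein, had 137 against 88.5 CPM and 0.87. UBE2T, a ubiquitin-conjugating enzyme of DNA repair, had 164 against 84.2 CPM and 0.90. KPNA2, an importin, had 228 against 141 CPM and 0.81. Others were HSPB11 (0.92 on the log2 scale), a subunit of intraflagellar transport, MT2A (0.90), a metallothionein encoded in the nucleus, IFITM3 (0.85), an antiviral membrane protein, and NDUFAF4 (0.81), an assembly factor of respiratory complex I.

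Grouped by function, nuclear-retained lncRNAs were low in the summed members. Of 12 listed nuclear-retained lncRNAs 11 are in the matrices. Of these 11, 7 were lower and 0 higher, against 8.02% of all genes lower, and their median log2 fold change was -0.88. All 7 were lower in every library, and 4 to 8 passed in each alternative that kept the library as a block. TUG1 fell by 0.88 and PVT1 by 0.98. Summed, the list took 0.0846% to 2.68% of the UMIs of members and 0.794% to 5.31% of those of the reference. It was lower in the members in 8 of 8 libraries. Members of 0.25% to 0.5% MT- UMIs exceeded the reference in SW620-FLAG day 12 (4.37% against 3.49%) and SW620-TET2CD day 12 (2.87% against 2.34%). They also did so in SW620-TET2CD day 15 (9.18% against 5.31%). They lay below it in SW620-FLAG day 15 (3.51% against 4.16%) and on days 6 and 9.

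Splicing regulators and speckle proteins, whose genes often yield transcripts that keep introns, had 12 of 24 members lower (8.02% of all genes) and 0 higher, with a median of -0.44. The number lower was 6 with DESeq2 and 6 when SW620-FLAG day 12 was left out, 7 for SW620-FLAG day 15, 8 for SW620-FLAG day 6 and 8 for SW620-TET2CD day 15, with medians between -0.44 and -0.32. With members up to 1% MT- UMIs 5 were lower, with a median of -0.23, and against a reference of 2% to 5% 6 were, with -0.45. NKTR fell by 0.82 and CCNL1 by 0.81. Of the most abundant, HNRNPU fell by 0.52 and DDX5 by 0.32, whereas SRSF3 was at 0.31 and did not pass (edgeR adjusted p = 0.0537). In the list of immediate early and heat shock genes, 7 of 20 were lower and 2 higher (8.02% and 5.38% of all genes), with a median of -0.19 that turned to 0.085 with members up to 1% MT- UMIs. JUN, a subunit of AP-1, ranged from 56.9 to 419 CPM in the members and from 441 to 1145 CPM in the reference, without overlap, and fell by 1.06 ± 0.12 (log2, SE, 5 libraries, edgeR adjusted p = 8.82e-16). FOS fell by 0.99, EGR1 by 1.00, KLF6 by 0.86, DUSP1 by 0.66 and IER2 by 0.65, each lower in 8 of 8 libraries. The 2 that were higher belong to the chaperones: HSPB1 rose by 0.73 and HSPE1, of the mitochondrial matrix, by 0.55. In this list 1 was higher when SW620-FLAG day 12 or SW620-TET2CD day 15 was left out, and 0 when barcodes counted equally. IER3 (-0.17) and HSPD1 (0.24) did not pass.

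Of 20 genes of cell surface and matrix proteins, 14 were lower (8.02% of all genes) and 0 higher, with a median of -0.64, and 12 of the 14 were lower in every library. SLC2A1, a glucose transporter, had a median of 182 CPM in the members and 405 CPM in the reference and fell by 0.47 and ITGB4, an integrin of hemidesmosomes, by 0.56. The deepest were LAMB1, a laminin chain (-2.62), and ERBB3, a receptor of neuregulin (-1.23). The summed share of the list was 0.0166% to 0.196% in the members and 0.137% to 0.313% in the reference, lower in 8 of 8 libraries. With members taken up to 1% MT- UMIs, 5 of the 20 were lower, with a median of -0.10, and with members of at least 2000 UMIs 4 were, with a median of -0.51. SLC2A1 and ITGB4 turned to 0.089 and 0.17 with members up to 1%. The number was 6 with DESeq2, 8 when SW620-FLAG day 12 was left out and 7 when SW620-TET2CD day 15 was, with medians of -0.54, -0.72 and -0.62.

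Among 25 genes of ER chaperones and the translocon, 10 were lower (8.02% of all genes) and 2 higher (5.38%), with a median of -0.37. With members up to 1% MT- UMIs 4 were lower and 3 higher, with a median of -0.073. Leaving out SW620-FLAG day 12 gave 7 lower and 0 higher (median -0.40), and leaving out SW620-TET2CD day 15 gave 8 and 0 (-0.31). HSPA5, the main ER chaperone, held 109, 27.7, 82.8 and 168 CPM in the SW620-FLAG members. In the reference it held 292, 242, 218 and 211 CPM, and it fell by 0.85 ± 0.13 (log2, SE, 5 libraries, edgeR adjusted p = 2.88e-08), lower in 8 of 8 libraries. PDIA4, PDIA3 and HSP90B1, which fold proteins in the ER lumen, fell by 0.99, 0.71 and 0.69. SEC61G and SEC61B, which are small tail-anchored subunits of the translocon, rose by 0.48 and 0.37, and SSR4 was at -0.13 and did not pass (edgeR adjusted p = 0.508). Neither SEC61G nor SEC61B passed when SW620-FLAG day 12 or SW620-TET2CD day 15 was left out, with all 8 libraries, or when barcodes counted equally. Of 13 tested epithelial markers, 3 were lower (8.02% of all genes), 0 were higher and 10 did not pass, with a median of -0.34. The 3 were the surface proteins EPCAM, CDH1 and CLDN3, which fell by 0.75, 0.76 and 0.96, each lower in 8 of 8 libraries. CLDN4, CLDN7, CEACAM5 and CEACAM6, surface markers of the same list, were not among the 3. The keratins KRT18, KRT8 and KRT19, which are cytosolic, were at 0.21, 0.27 and 0.16 and did not pass. A split by protein location was not tested.

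Genes of ribosomal and abundant cytosolic proteins made up more of the summed members. Of 79 cytosolic ribosomal protein genes, 68 were higher and 0 lower, against 5.38% of all genes higher, with a median of 0.40. They took 26.9% to 38.8% of the members' UMIs and 25.7% to 32.3% of the reference's, more in the members in 8 of 8 libraries. Members of 0.25% to 0.5% MT- UMIs were below the reference in SW620-FLAG day 12 (27.7% against 32.3%) and SW620-TET2CD day 15 (24.4% against 29.2%). They were also below it in SW620-TET2CD day 6 (25.1% against 26.2%), and above it in the remaining libraries. RPL13 rose by 0.39 and RPS18 by 0.37, while RPS2 was at 0.31 (edgeR adjusted p = 0.0657). Of 24 abundant cytosolic protein genes, 20 were higher and 0 lower. FTH1, the heavy chain of ferritin, rose by 0.64, EEF1A1, an elongation factor, by 0.34, and TMSB4X, which binds actin, by 0.34. By library size alone 47 of the 79 and 12 of the 24 were higher. When barcodes counted equally, with fewer UMIs in all, 0 of either list passed, with medians of 0.07 and 0.14 beside a median of all genes of -0.41. With members up to 1% MT- UMIs 10 ribosomal and 17 cytosolic genes were higher (medians 0.21 and 0.35). With members of at least 2000 UMIs 2 and 3 were (0.47 and 0.42), and against a reference of 2% to 5% 19 and 5 (0.39 and 0.30). Fewer genes also passed with a library left out, at medians that moved less. Leaving out SW620-FLAG day 12 left 1 ribosomal and 0 cytosolic genes higher (medians 0.37 and 0.36), leaving out SW620-TET2CD day 15 left 2 and 0 (0.32 and 0.35), and leaving out SW620-FLAG day 15 left 22 and 15 (0.35 and 0.45). Many of these genes have processed pseudogenes that can share reads with them.

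Nuclear genes of mitochondrial proteins are given apart from the MT- genes, whose low share in the members is set by the rule. Of 68 tested nuclear-encoded subunits of oxidative phosphorylation, 45 were higher (5.38% of all genes) and 0 lower, with a median of 0.37. That median lay close to the 0.40 and 0.43 of the ribosomal and abundant cytosolic lists, so the rise was not particular to mitochondrial proteins. ATP5F1E, the epsilon subunit of ATP synthase, had a median of 1353 CPM in the members and 942 CPM in the reference and rose by 0.61. UQCRH rose by 0.57 and ATP5MC2 by 0.45, and the list was higher in 8 of 8 libraries, with 1.98% to 3.07% of UMIs against 1.71% to 2.74%. When barcodes counted equally, 0 of these genes passed. When SW620-FLAG day 12 was left out 1 passed, and when SW620-TET2CD day 15 was 3 did, with medians of 0.31 and 0.28. With members up to 1% MT- UMIs 12 were higher (median 0.18), with members of at least 2000 UMIs 14 (0.40), and by library size alone 21 were higher and 3 lower (0.19). For genes that express the mitochondrial genome, 2 of 21 were higher and 1 lower, beside 5.38% and 8.02% of all genes: SLIRP, which stabilizes mitochondrial mRNAs, rose by 0.48, SSBP1, which binds its DNA, by 0.44, and GFM1, an elongation factor of its ribosomes, fell by 0.70. TUFM was at 0.16 and did not pass. None of the list passed when SW620-FLAG day 12 or SW620-TET2CD day 15 was left out (medians -0.16 and -0.18, against -0.12). In the list of mitophagy and mitochondrial turnover, 4 of 14 were higher and 0 lower, but 1 or 2 with any 1 of the 5 libraries left out (medians 0.19 to 0.32) and 0 when barcodes counted equally (median -0.10). BNIP3L, a mitophagy receptor, rose by 0.73 and OPTN by 0.56, but each was higher in 5 of 8 libraries only.

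Proliferation genes were mixed, and the counts here stand beside 5.38% of all genes higher and 8.02% lower. Of 16 S phase genes 3 were higher and 0 lower, among them RRM2 (0.74) and PCNA (0.41), while MCM3 (0.09) and MCM7 (0.09) did not pass. Of 16 G2 and M phase genes 6 were higher, CDK1 (1.08), CDC20 (0.67), AURKB (0.61), AURKA (0.57), CCNB2 (0.56) and CCNB1 (0.52), and 2 were lower, MKI67 (-0.59) and CENPF (-0.53), which both encode very large proteins. TOP2A was at 0.24 and did not pass. These counts depended on single libraries: leaving out SW620-FLAG day 12 gave 0 S phase genes higher, and 1 higher and 3 lower of the G2 and M phase genes, whose median turned to -0.13. Leaving out SW620-TET2CD day 15 gave 0, and 1 higher and 2 lower with a median of -0.21. Of 13 replication-dependent histone genes 3 were higher, led by HIST1H2BC (1.05) and HIST1H1C (0.56), and HIST1H4C (-0.17) and HIST1H1B (0.23) did not pass. The histone median of 0.23 turned to -0.076, with 0 higher and 1 lower, when SW620-FLAG day 12 was left out, and to -0.065, with 2 higher, when SW620-TET2CD day 15 was, and 1 was higher when SW620-FLAG day 15 was. In the p53 and apoptosis list, 3 of 20 were higher, DDIT3 (0.94), DDIT4 (0.93) and TRIB3 (0.49), and MCL1 was lower (-0.52). DDIT4 was higher in 5 of 8 libraries only, with a median of 72.3 CPM in the members and 94.6 CPM in the reference. BAX (0.11) and GDF15 (0.13) did not pass, and GDF15 was at -1.20 with members taken under 0.25% MT- UMIs. Of 16 hypoxia genes, 3 were higher and 1 lower, the surface enzyme CA9 (-0.70). Leaving out SW620-FLAG day 12 gave 1 higher and 0 lower. This list turned with the limit: 15 were higher with members up to 1% MT- UMIs, and 0 higher and 4 lower with members under 0.25%. The summed shares of the cell cycle, histone, p53 and hypoxia lists overlapped widely between members and reference.

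**Figure D3:**
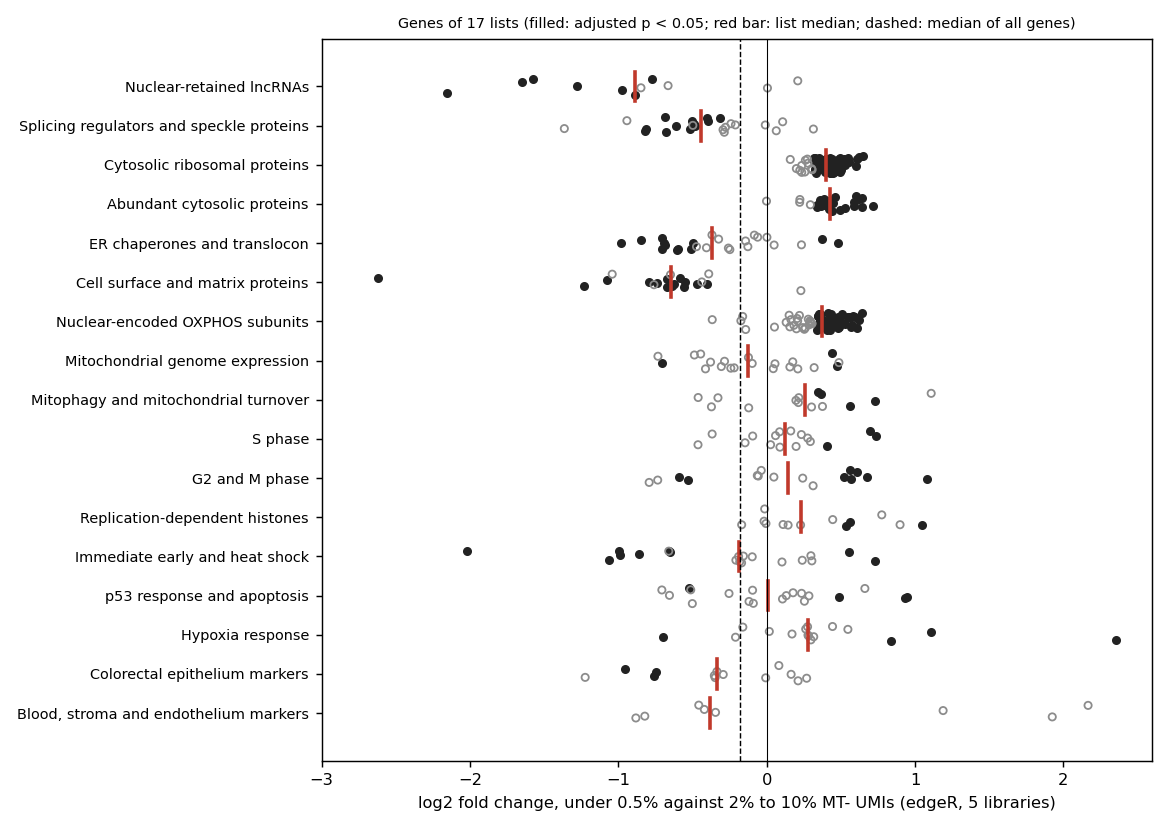
Log2 fold change of members against the reference (edgeR, 5 libraries; horizontal axis) for each tested gene of 17 lists (rows), with filled points for adjusted p under 0.05, a red bar at the list's median and a dashed line at the median of all 15807 genes. Nuclear-retained lncRNAs (-0.88) and cell surface genes (-0.64) lie left of the dashed line, and ribosomal (0.40), cytosolic (0.43) and nuclear-encoded oxidative phosphorylation genes (0.37) right of it; 1 gene lies outside the axis.

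The members were not uniform. Divided by the MALAT1 count among 900 drawn UMIs, 343 had none drawn and 265 had at least 1, a division made after the values were seen and given without a test. Undrawn UMIs included, the 343 still held 439 MALAT1 UMIs (269 CPM). In the 343, NEAT1 had 58 of 1634340 UMIs and KCNQ1OT1 had 5, whereas in the 265 NEAT1 had 2326 of 1489804 UMIs and KCNQ1OT1 had 416. That is 35.5 and 3.06 CPM in the first group, 1561 and 279 CPM in the second and 1123 and 633 CPM in the reference. The pooled NEAT1 value of the second group hides the days: it was below the reference in all 4 libraries of days 6 and 9 (88.8 to 279 against 338 to 603 CPM, on 1 to 168 UMIs) and above it in the 4 of days 12 and 15 (2146 to 4169 against 1323 to 3211 CPM, with 2146 against 2139 CPM in SW620-FLAG day 15). Their depths overlapped, with medians per library of 2559 to 5434 UMIs in the 343 and 1567 to 8035 UMIs in the 265. HSPA5 stood at 60.6, 207 and 255 CPM in the same order, the 343, the 265 and the reference.

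Some of the lists differed along the same division. Cell surface and matrix genes took 0.0571% of the UMIs of the 343 members with no drawn MALAT1 UMI, 0.191% of the 265 and 0.196% of the reference. ER chaperones and translocon took 0.323%, 0.517% and 0.541%, and ribosomal proteins 36.5%, 29.3% and 28.2%. Splicing regulators took 0.284%, 0.381% and 0.475%. Abundant cytosolic proteins took 7.57% and 7.60% in the members and 6.31% in the reference. Epithelial markers differed little, at 1.22%, 1.22% and 1.29%, and so did genes of mitochondrial genome expression, at 0.167%, 0.155% and 0.167%. These shares are pooled over the 8 libraries and were not compared within days.

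**Figure D4:**
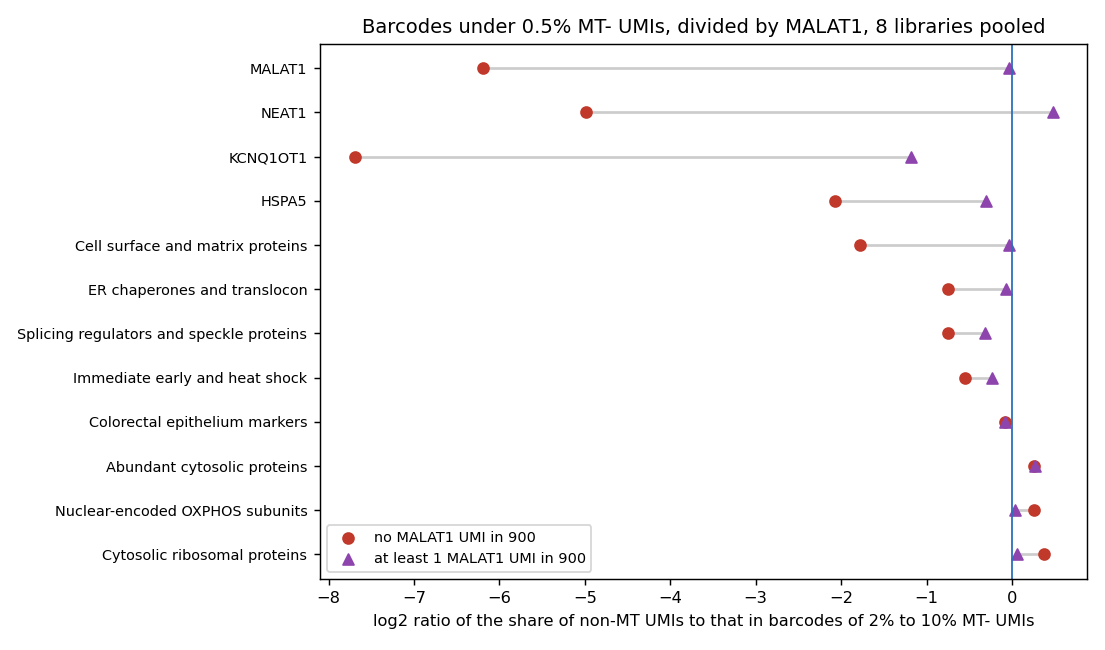
Log2 ratio (horizontal axis) of the share of non-MT UMIs in the members to the share in the reference, for 4 genes and 8 lists (rows), pooled over 8 libraries, with circles for the 343 members without a MALAT1 UMI in 900 and triangles for the 265 with at least 1. MALAT1 itself made the division; NEAT1 and KCNQ1OT1 lie far left for the circles (35.5 and 3.06 CPM against 1123 and 633 CPM), and surface genes (0.0571% against 0.196%) lie left too.

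Whether the difference between members and reference varied with the line was asked by an interaction term, and 0 of 15807 genes passed (0%, edgeR, adjusted p under 0.05), with 269 at an unadjusted p under 0.05 and 0 calls by DESeq2. For the days, 13 genes passed (0.0822%), 7 with a more positive difference on days 12 and 15 and 6 with a more negative one, and DESeq2 passed 1. For NEAT1, the log2 ratio of members to reference on day 6 was -3.59 for SW620-FLAG and -1.02 for SW620-TET2CD, and -0.37, -0.90 and -0.57 in the late libraries that entered the fit (SW620-FLAG days 12 and 15 and SW620-TET2CD day 15). The late difference was higher by 1.53 ± 0.25 (log2, SE, 5 libraries, edgeR adjusted p = 7.13e-06). This call rested on SW620-FLAG day 6: when that library was left out the value was 0.64 (edgeR adjusted p = 0.888), and SW620-TET2CD day 12, which was not fitted, had -1.03, close to day 6 of the same line. PCLAF, a PCNA-binding factor of S phase, was about even on day 6 (0.10 and -0.04) and higher in the members of the late libraries (1.90, 0.96 and 2.02), a gap of 1.86 ± 0.29 (edgeR adjusted p = 1.96e-06, 5 libraries). Day 9, which was not fitted, had 0.90 in SW620-FLAG and 1.17 in SW620-TET2CD, as high as SW620-FLAG day 15 or nearly so. SLC2A3, a glucose transporter, had an interaction of 1.90. FXYD2, a small membrane protein, had -1.87, GPR155 -1.86 and FCGRT, the neonatal Fc receptor, -1.65. SLC2A3 no longer passed when any of SW620-FLAG day 6 (1.46), SW620-TET2CD day 6 (3.05) and SW620-TET2CD day 15 (3.25) was left out. GPR155 and FCGRT no longer passed when SW620-TET2CD day 6 (-0.89 and -0.99), SW620-FLAG day 12 (-1.64 and -1.39) or SW620-TET2CD day 15 (-0.70 and -0.80) was. Only SW620-TET2CD and SW620-FLAG day 6 stand for the early days here, and without SW620-FLAG day 6 the FXYD2 value was 0.25, and leaving out SW620-FLAG day 12 gave -0.96, which did not pass. The count of calls ran from 8 to 68 when each library was left out, 68 without SW620-FLAG day 15, and was 103 with all 8 libraries.

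Within the members, late days differed from early days. Of 4793 genes tested in the 8 sums of members, 1142 differed between days 12 and 15 and days 6 and 9 (23.8%, edgeR adjusted p under 0.05, line as block), 646 higher and 496 lower. In the reference sums, fitted in the same way, 9699 of 16885 differed (57.4%). The reference sums hold 43193894 to 68163007 UMIs and those of members 72086 to 879014, and the genes tested differ. The 2 percentages therefore do not compare the size of the change. The sums of members had MALAT1 higher on the late days by 3.28 ± 0.33 and those of the reference by 1.89 ± 0.24, and NEAT1 by 4.23 ± 0.45 and 1.97 ± 0.27 (log2, SE, 8 libraries). For MALAT1 this was not seen in the members under 0.1% MT- UMIs, whose 4 early libraries (678 to 4841 CPM) and 4 late libraries (620 to 5372 CPM) overlapped. NEAT1 had 14.2 to 161 CPM there on the early days and 197, 207 and 494 CPM in 3 of the late libraries, above every early one, with 10.9 CPM in SW620-TET2CD day 15. DDIT4, an inhibitor of mTORC1, went from 15 to 479 UMIs (10.1 to 291 CPM) and rose by 4.80 ± 0.37, beside 4.11 in the reference. SDCBP2, a syntenin, went from 4.06 to 110.0 CPM. NDRG1, a hypoxia-induced gene, had 0 UMIs on the early days and 73 on the late days, and the exact 95% counting interval of the ratio begins at 17.3. The leading falls were FOXM1, a transcription factor of the G2 phase (-2.99, beside -3.35 in the reference), ASF1B, a histone chaperone (-2.97 and -3.13), and NCAPH2, a condensin subunit (-2.89 and -2.28). The count fell to 361 without SW620-FLAG day 6 and to 502 without SW620-TET2CD day 15, and it was 293 of 1068 tested genes when barcodes counted equally.

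Between the lines, 2 of 4793 genes differed within the members (0.0417%, edgeR adjusted p under 0.05, day as block), and 203 of 16885 in the far deeper sums of the reference (1.20%). One was TET2 itself, the gene of the construct. It had 1 UMI in the SW620-FLAG members and 299 in those of SW620-TET2CD, a ratio of 291 with an exact 95% counting interval of 51.8 to 11521. Of the 299 UMIs, 264 came from SW620-TET2CD day 6, and days 9, 12 and 15 had 6, 4 and 25. The other was CASC15, a lncRNA, with 7.14 CPM against 57.4 CPM, higher by 3.27 ± 0.46 (edgeR adjusted p = 0.00396, 8 libraries), beside 3.73 in the reference. TET2 no longer passed when SW620-FLAG day 6 was left out (log2 fold change 5.46, edgeR adjusted p = 0.0739), nor CASC15 when SW620-TET2CD day 15 was (3.50, edgeR adjusted p = 0.272), and the number of genes that differed ran from 1 to 16 over the libraries left out, 16 for SW620-TET2CD day 6. On day 6 the SW620-TET2CD members held 300.3 CPM of TET2 and the reference 107 CPM, on day 9 they held 48.8 and 64.0 CPM, on day 12 23.3 and 43.7 CPM, and on day 15 60.9 and 45.3 CPM. Over the 5 libraries TET2 was higher in the members by 1.03 ± 0.21 (log2, SE, edgeR adjusted p = 5.49e-05), but by 0.30 without SW620-TET2CD day 6 (edgeR adjusted p = 0.681), and it was at -0.04 with DESeq2. Its CPM was lower in the members in 6 of 8 libraries.

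The share of members among the barcodes within the limits differed between libraries, and the line with the larger share changed with the day. With 1 library per line and day, a difference between libraries cannot be told apart from one of line or day. In SW620-FLAG it was 1.02% of 5997 barcodes on day 6, 0.270% of 10386 on day 9, 1.75% of 4511 on day 12 and 1.73% of 8080 on day 15. In SW620-TET2CD it was 1.47% of 8531, 0.366% of 8192, 0.729% of 4804 and 1.36% of 8061. SW620-TET2CD was above SW620-FLAG on days 6 and 9 and below it on days 12 and 15. The mean difference was -0.21 percentage points ± 0.64 (SD, 4 days, exact sign-flip permutation p = 0.75, where 4 days allow no p under 0.125). Without day 12 it was 0.06. Late days exceeded early days by 0.61 percentage points (8 libraries, exact permutation of days within lines, p = 0.278, smallest possible 0.0556), by 1.10 in SW620-FLAG and 0.13 in SW620-TET2CD. Both day 9 libraries had the lowest shares of their line, and they also had the highest median MT- share of SW620-FLAG (8.53%) and the second highest of SW620-TET2CD (7.87%), whose part in the low shares was not tested.

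**Figure D5:**
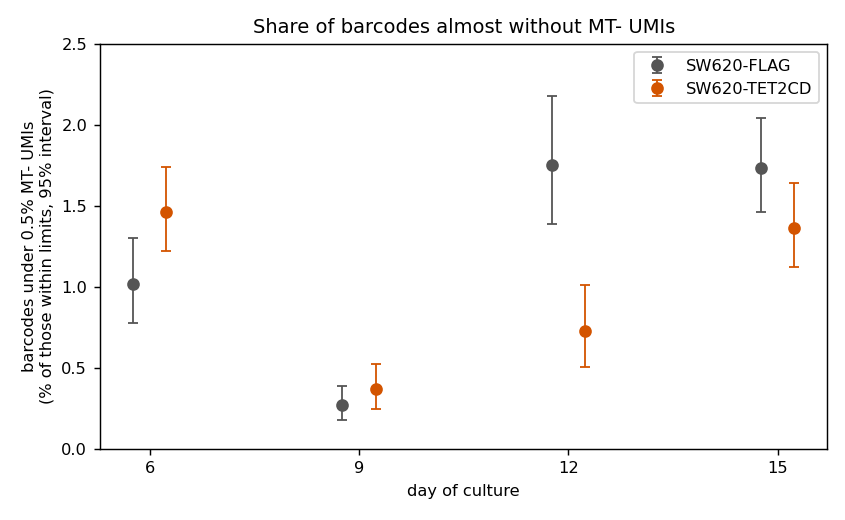
Share of barcodes under 0.5% MT- UMIs among those within the limits on genes and UMIs (vertical axis, %) by day of culture (horizontal axis) for SW620-FLAG and SW620-TET2CD, with bars for the exact 95% binomial interval of each library. The day 9 points (0.270% and 0.366%) are the lowest of each line. The bars cover counting error only and do not compare the lines, as each line and day is 1 library.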

How the data were processed

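Single-cell libraries were made with the Chromium 3′ v3.1 kit. The deposited matrices hold UMI counts per gene and barcode, written by Cell Ranger 4.0 against GRCh38 per the submitters' processing notes. Whether intronic reads were counted and how doublets were treated is not stated in what was read, and no doublets were called here. The study's cell filter used the same limits on genes and UMIs, an upper limit of 10% on MT- UMIs and no lower one.

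Counts were summed per library and group over 36601 genes without the 13 MT- genes and tested with edgeR 4.0.16 in R 4.3.3 (filterByExpr, TMM, quasi-likelihood test, two-sided, library as block, Benjamini-Hochberg over all tested genes, threshold 0.05). A library entered with at least 50 barcodes in each group (5 libraries, 10 sums), and comparisons within the members used all 8. The block is the library: members and reference of a library come from 1 culture, so the pairing comes from the source of the barcodes. Values came from 1 library per condition, so no p-value measures the spread between replicate cultures. The edgeR SEs were computed back from the fold change and the test statistic. These SEs and the p-values rest mainly on a spread shared across genes, not on a gene's own spread over the libraries. HSPD1, RPL13 and NEAT1, for example, had SEs of 0.112, 0.119 and 0.119. Such SEs and p-values can be too small for a gene whose libraries differ. For NEAT1 the log2 ratios of the 5 fitted libraries ran from -3.59 to -0.37, beside a fitted SE of 0.12. Barcodes were thinned to 900 UMIs with numpy 2.4.6, and exact tests used Python 3.11.15 (scipy 1.17.1 for 95% Clopper-Pearson intervals). Intervals, and the limit of 3 UMIs behind a count of 0, cover counting error only. Per-library log2 ratios used a pseudocount of 1 CPM. On simulated counts for the members against the reference (15033 genes) edgeR recovered 49.0% of genes changed by 1 on the log2 scale and 65.6% of those changed by 2, with 6 false calls among 14842. The simulation used 1 mean profile for all 10 sums, edgeR's own dispersion trend and the same change in every library. It therefore cannot tell how many of the real calls are false.

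Members and lists (17 lists, 1 listed gene absent from the matrices) were chosen with earlier results of these data known. Named genes are MALAT1, NEAT1 and TET2, the 10 largest rises and 10 deepest falls past the threshold with the same direction in 8 libraries and a mean of at least 20 CPM, the 3 most abundant tested genes of each list, and 3 genes per direction of each other comparison. Further genes are named as examples of a list's count. Some genes that the rule picks are not reported here. Positions are from GENCODE release 44, where 36366 genes matched by identifier. Bulk libraries were not used here. Alternatives were DESeq2 1.42.0, no filter, other scalings, no block, other limits, thinning, and each library left out, and, chosen after seeing the data, all 8 libraries for the main fit and the 5 for the others.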

Additional observations from a re-analysis of the deposited data

Results flagged for a closer look

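For 13 genes the difference between members and reference itself differed between days 12 and 15 and day 6 (edgeR interaction term, 5 libraries), and 6 of them are given here. The interaction was 1.90 for SLC2A3 (adjusted p = 0.0289), 1.86 for PCLAF (adjusted p = 1.96e-06) and 1.53 for NEAT1 (adjusted p = 7.13e-06). It was -1.87 for FXYD2 (adjusted p = 0.0289), -1.86 for GPR155 (adjusted p = 0.0289) and -1.65 for FCGRT (adjusted p = 0.00526). Of the 6, all but PCLAF lost the call when some 1 library was left out, as NEAT1 did without SW620-FLAG day 6 (0.64, edgeR adjusted p = 0.888). FXYD2 had 80 UMIs in the SW620-FLAG day 6 members and 24 in those of SW620-TET2CD day 6.

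FTX was picked out in SW620-FLAG day 9, where the log2 ratio of members to reference was -6.09 and the next lowest of the 8 libraries was -2.59. The members had no FTX UMI in 72086 there, so the ratio is set by the pseudocount of 1 CPM: a count of 0 allows 41.6 CPM, against 67.3 CPM in the reference, and the library is not shown to differ from the others. Of 41 sets of 8 library values examined for such a gap, 1 passed, and chance alone passes about 1 in 20.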

How the results depend on the processing

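The count of 2119 genes depends on pairing members and reference by library: with no replicate block 0 genes passed (edgeR), 1807 at an unadjusted p under 0.05. It was 1030 with a reference of 2% to 5%, 612 with barcodes thinned to 900 UMIs, 1194 at 1000 to 5000 UMIs (2 libraries), 904 at 2000 to 20000 UMIs, and 830 to 1719 with each library left out. The line interaction gave 1 gene by library size alone, 2 with all 8 libraries and 1 to 4 with a library left out. The day interaction gave 1 with DESeq2, 21 thinned, 103 with all 8 libraries and 8 to 68 with a library left out. Late against early days gave 293 thinned and 361 to 1414 with a library left out. Between the lines, 17 genes passed with no filter on low counts, 1 thinned (not TET2 or CASC15), and 1 to 16 with a library left out. The difference in shares between the lines ran from -0.431 to 0.0589 percentage points, turning without either day 12 library, late minus early from 0.340 to 0.890, genes per barcode from -53.4 to -46.1, and barcodes without MALAT1 from 57.3 to 64.3 points.

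Named genes that turned, as log2 fold changes, were mostly near 0. With members under 1% MT- UMIs these were NEAT1 0.30, SLC2A1 0.089, ITGB4 0.17, TUFM -0.074, MCM3 -0.34, MCM7 -0.13, TOP2A -0.22, HIST1H1B -0.15, BAX -0.087 and P4HA1 0.60. Under 0.25% they were TAX1BP1 -0.11, GDF15 -1.20 and BHLHE40 -0.013. Thinned, they were RPS18 -0.041, EEF1A1 -0.013, PHB2 -0.044, TAX1BP1 -0.31, MCM3 -0.12, MCM7 -0.21, TOP2A -0.061, BAX -0.35, GDF15 -0.82, BHLHE40 -0.075, KRT18 -0.11, KRT8 -0.000617 and KRT19 -0.24. With DESeq2 TET2 was at -0.037, and with upper-quartile factors SSR4 at 0.014. By library size alone TUFM was at -0.025, MCM3 -0.075, MCM7 -0.067, BAX -0.074, GDF15 -0.072 and KRT19 -0.024. With all 8 libraries TUFM was at -0.035, MCM3 -0.13, HIST1H1B -0.11, GDF15 -0.12, KRT18 -0.013 and KRT19 -0.079. At 1000 to 5000 UMIs TAX1BP1 was at -0.28, CENPF 1.91, HIST1H4C 0.68, HIST1H1C -0.035, GDF15 -0.67, DDIT4 -0.82, BHLHE40 -0.88 and KRT19 -0.29. Against 2% to 5% GDF15 was at -0.13, BHLHE40 -0.051 and KRT19 -0.054, and against 5% to 10% P4HA1 at 0.027. With each library left out, MCM3 ran from -0.19 to 0.19, MCM7 from -0.048 to 0.15, TOP2A from -0.12 to 0.57, HIST1H1B from -0.12 to 0.53, GDF15 from -0.062 to 0.27 and the FXYD2 interaction from -2.45 to 0.25. The cause of these turns was not tested. The members' sums hold 72086 to 879014 UMIs, so low genes in them rest on few UMIs, and each line and day is 1 library.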
